A study of Mus musculus with 11 samples.

Results

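Excitation-contraction coupling and calcium store genes were followed here as a set of 10: Ryr1, Cacna1s, Cacng1, Cacnb1, Stac3, Jph1, Jph2, Casq1, Casq2 and Atp2a1. They are 10 of the 20368 gene symbols in the expression tables, and all 10 were found. They were chosen by name for their role, with earlier results of these data known. Each was described by its expression in both RNA experiments and by the peaks of MyoD, MyoG and H3K4me1 that lay 30 kb or less from its locus.

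The cells were C2C12, a mouse myoblast line of C3H strain origin that differentiates into multinucleate myotubes when serum is lowered. For chromatin immunoprecipitation with sequencing (ChIP-seq), proliferating myoblasts in 10% fetal bovine serum gave 1 sample each for MyoD and for H3K4me1, a histone mark of enhancers. Myotubes at 48 h in 2% horse serum with insulin, transferrin and selenium gave 1 sample each for MyoD, MyoG and H3K4me1. PolyA RNA-seq was collected at 4 h in the same 2% horse serum medium. The DRRi library came from cells with RNAi against the RNA of the DRR, the distal regulatory region of Myod1, and its control, GFPi, from cells with RNAi against GFP. The pHAN_DRR1.2 library came from cells that overexpressed DRR RNA, and its control, pHAN_GFP, from cells that overexpressed GFP. How the RNAi and the constructs were delivered is not given in the sources used here. Each group was 1 library of 1 cell line, so differences between groups could not be set against replicate spread and none was tested.

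In skeletal muscle, an action potential that enters the transverse tubule is sensed by the dihydropyridine receptor, a voltage-gated calcium channel built on the protein of Cacna1s. That channel acts mechanically on the ryanodine receptor Ryr1, which opens and releases calcium from the sarcoplasmic reticulum. Junctophilins hold the facing membranes together, calsequestrins buffer calcium inside the store, and the pump encoded by Atp2a1 returns calcium to it. MyoD and MyoG are basic helix-loop-helix factors that bind the E-box, CANNTG, and drive the muscle programme, MyoG later than MyoD.

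FPKM counts fragments per kilobase and is scaled to the library, and the authors gave it per coding sequence. Summed FPKM ranged from 383000 to 412000 over the 4 RNA libraries, and 10516 to 10694 genes reached 1 FPKM. How deeply the RNA libraries were sequenced is unknown. All 6 myoblast and early muscle markers were expressed in every library, among them Des, the muscle intermediate filament, at 231 to 577 FPKM. Of 4 neuronal markers, Snap25 and Rbfox3 were listed at 0 in all 4 libraries and Syt1 at no more than 0.0232 FPKM, but Tubb3, a tubulin, stood at 35.5 against 24.5 FPKM in the DRRi experiment and at 91.0 against 51.0 in the overexpression experiment, treated against control. The 3 endothelial and blood markers in the tables summed to at most 0.113 FPKM. Adipocyte markers summed to at most 0.445 FPKM. Acta2, a smooth muscle actin that young muscle cells also make, stood at 475 to 2024 FPKM and Smtn at 17.2 to 28.7, while Myh11, which defines mature smooth muscle, was at or under 0.0569. Cnn1, another smooth muscle marker, stood at 2.89 against 1.41 FPKM in DRRi and GFPi and at 7.76 against 17.3 in pHAN_DRR1.2 and pHAN_GFP. The part of these markers in the members' values was not tested. Myog was lower in DRRi than in GFPi, at 2.61 against 10.2 FPKM, and higher in pHAN_DRR1.2 than in pHAN_GFP, at 65.8 against 26.3.

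At 4 h of differentiation the 10 genes spanned a wide range of levels. Cacng1, the gamma subunit of the muscle calcium channel, was the most abundant of them in all 4 libraries, at 42.3 FPKM in DRRi, 90.1 in GFPi, 145 in pHAN_DRR1.2 and 109 in pHAN_GFP. Jph2, a junctophilin shared with heart, came next in every library, at 24.8, 29.8, 53.1 and 55.8 FPKM in the same order. The other 8 lay between 0 and 8.22 FPKM. The main subunits of the voltage sensor and release channel were scarce. Cacna1s, the voltage-sensing pore subunit, was listed at 0 in DRRi and stood at 0.0430 FPKM in GFPi, 0.511 in pHAN_DRR1.2 and 0.323 in pHAN_GFP. Ryr1, the release channel, stood at 0.164, 0.520, 2.10 and 1.38 FPKM. Casq1, the calsequestrin of fast fibres, stood between 0.0512 and 0.245 FPKM. With 1 library per group, neighbours in this order cannot be separated by their spread, and how each table was scaled is not given in the sources used here, so levels are compared only within a table.

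**Figure D1:**
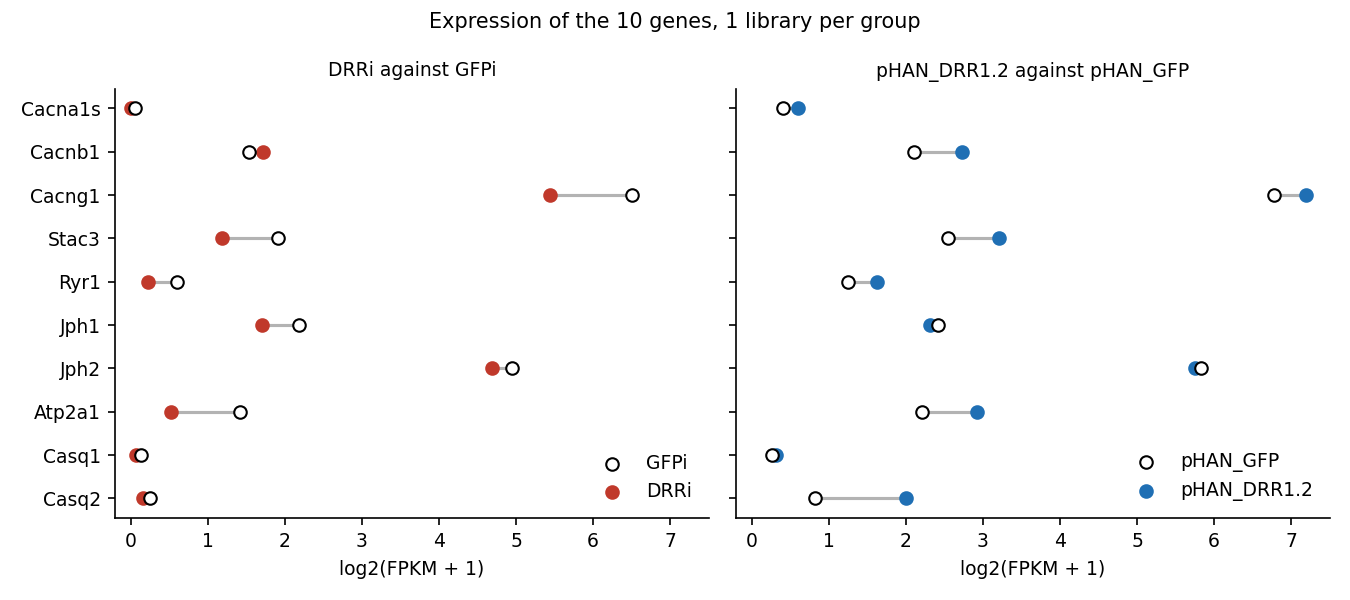
Expression of the 10 genes as log2(FPKM + 1), with 1 point per library and the treated and control libraries of each experiment joined by a line. Cacng1 and Jph2 sit apart at the right in both panels, and 4 genes lie below 1 FPKM in both libraries of the DRRi experiment.

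RNAi against the DRR RNA asked whether these genes depend on it early in differentiation. Cacng1, Atp2a1 and Stac3 were lower in DRRi than in GFPi. No member was 1.5-fold or more higher. Cacng1 stood at 42.3 FPKM against 90.1 in the control, a log2 change of -1.07 on the log2(FPKM + 1) scale used for every change below, which understates changes of weakly expressed genes. Atp2a1, the fast-fibre calcium pump, stood at 0.434 against 1.68 FPKM (-0.90). Stac3, an adaptor that the voltage sensor needs to reach the membrane and to couple to the release channel, stood at 1.27 against 2.75 FPKM (-0.72).

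Of the 6 members whose mean over both libraries reached 1 FPKM, 3 lay lower by 1.5-fold or more, where 3.5% of the 10577 genes at that level did, and 0 lay higher, against 4.66% of genes. Atp2a1 passed this filter only through its level in GFPi. The junctophilins, which clamp the store to the tubule, lay below the control by less than the threshold of 1.5-fold on the log2(FPKM + 1) scale. Jph1, the skeletal muscle form, stood at 2.25 against 3.56 FPKM (-0.49), which is 1.58-fold as a plain ratio, and Jph2 at 24.8 against 29.8 (-0.25). Cacnb1, the intracellular beta subunit of the channel, lay above it, at 2.29 against 1.89 FPKM (0.19). Its 4 coding sequences did not share a direction. The one listed highest in DRRi stood at 1.32 against 0.459 FPKM, the one listed highest in GFPi at 0.784 against 1.03, and the coding sequence with the highest level alone gave -0.18. The median change of the 6 was -0.61, against 0.02 over the 10577 genes.

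The 4 members below 1 FPKM in both libraries also lay below the control. Ryr1 stood at 0.164 against 0.520 FPKM (-0.39) and Casq2, the cardiac and slow-fibre calsequestrin, at 0.114 against 0.190 (-0.10). Casq1 stood at 0.0512 against 0.0992 FPKM (-0.06), and Cacna1s was listed at 0 against 0.0430. Counted whole, 9 of the 10 members were below the control and 1 above, with a median change of -0.32. Among the 10577 measured genes, which leave out such low levels, 46.5% lay below it. Of the 6 members at that level, all but Cacnb1 did.

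In the authors' deposited table, 1 member passed a q-value of 0.05 in this comparison, Cacng1, with a q of 0.0337. That threshold was passed downward by 0.609% and upward by 0.729% of the 11655 genes for which the table holds a test, and 0 members passed it upward. The next lowest q in the authors' deposited table was that of Ryr1, at 0.0824, followed by Atp2a1 at 0.639, Stac3 at 0.652 and Jph1 at 0.873. Cacna1s, Casq1 and Casq2 were not tested there. The q-values rest on 1 library per condition. In bulk RNA a smaller share of cells that express a gene and less RNA per cell cannot be told apart. Of the 6 myoblast and early muscle markers, 2 lay lower in DRRi by 1.5-fold or more and 0 higher. Those lower were Myog and Chrna1, the latter at 34.6 against 60.2 FPKM. Over all measured genes 3.5% lay as much lower and 4.66% as much higher. Des stood at 231 against 267 FPKM and Myod1 at 33.1 against 37.7, and the log2 change of Cdh15 was -0.03. Myf5 went the other way, at 18.4 against 15.1 FPKM. The part of the cells' stage in these differences was not tested.

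Overexpression of DRR RNA gave the complementary comparison. Casq2, Atp2a1, Stac3 and Cacnb1 lay above pHAN_GFP by 1.5-fold or more in the pHAN_DRR1.2 library, and no member lay below it by that size. Casq2 stood at 3.01 FPKM against 0.772, a ratio of 3.90 and a log2 change of 1.18. Atp2a1 stood at 6.60 against 3.62 FPKM (0.72), Stac3 at 8.22 against 4.82 (0.66) and Cacnb1 at 5.64 against 3.32 (0.62). Cacnb1 lay close to the threshold. It fell short of 1.5-fold, at 0.58, when the libraries were scaled to the same upper quartile, and its most abundant coding sequence alone gave 0.46.

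Among the 8 members that reached the mean of 1 FPKM, these 4 are read beside the 1.38% of 10699 genes that lay as much higher, and the 0 lower members beside 0.654%. Casq2 passed the filter only through its level in pHAN_DRR1.2. Cacng1, at 145 against 109 FPKM (0.41), and Ryr1, at 2.10 against 1.38 (0.38), lay above the control by less than 1.5-fold on the log2(FPKM + 1) scale, although the plain ratio of Ryr1 was 1.52. The junctophilins differed least, with Jph2 at 53.1 against 55.8 FPKM (-0.07) and Jph1 at 3.96 against 4.32 (-0.10). The median change of the 8 was 0.52, against 0.02 over all measured genes. Below the filter, Cacna1s stood at 0.511 against 0.323 FPKM (0.19) and Casq1 at 0.245 against 0.198 (0.06), so that 8 of 10 members lay above the control and 2 below. Among the 10699 measured genes 55.6% lay above it, and of the 8 members at that level all but Jph1 and Jph2 did.

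Casq2 was the member the authors' deposited table called in this experiment, with a q of 6.94e-05, where 1.01% of 11798 tested genes were called higher and 0.627% lower, and 0 members were called lower. The q-values of Atp2a1, Ryr1, Stac3 and Cacng1 in the authors' deposited table were 0.182, 0.246, 0.252 and 0.496, and Casq1 was not tested there. Of the 6 myoblast and early muscle markers, 1, Myog, lay higher by 1.5-fold or more and 0 lower, against 1.38% and 0.654% of measured genes. Des stood at 577 against 460 FPKM, Cdh15 at 151 against 113, Chrna1 at 144 against 131 and Myf5 at 10.7 against 8.75. Myod1 went the other way, at 65.6 against 68.9. The part of the cells' stage was not tested here either. Because Casq2 is also a heart gene, cardiac markers were read beside it. Of 8 cardiac markers, 3 reached the mean of 1 FPKM in these libraries and 2 of them lay higher by 1.5-fold or more. Over all measured genes 1.38% lay as much higher. Nppb, a natriuretic peptide, stood at 2.98 against 1.34 FPKM and Myl4, a light chain of atrial and embryonic muscle, at 5.30 against 3.09. Gata4, a cardiac transcription factor, stood at 6.46 against 4.64 FPKM (0.41). The 8 summed to 15.4 against 9.67 FPKM. Tbx5, another cardiac factor, was listed at 0 in both. Myh6, the atrial myosin, stood at 0.139 against 0.215 and Nkx2-5 at 0.062 against 0.188. Cardiac markers also lay above the control in the DRRi experiment, where they summed to 7.73 against 6.01 FPKM. There 2 of the 8 reached the mean of 1 FPKM and 1 lay higher by 1.5-fold or more, against 4.66% of measured genes. It was Myl4, at 1.97 against 0.965 FPKM, and Gata4 stood at 4.63 against 3.92. The part of these genes in the Casq2 difference was not tested.

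**Figure D2:**
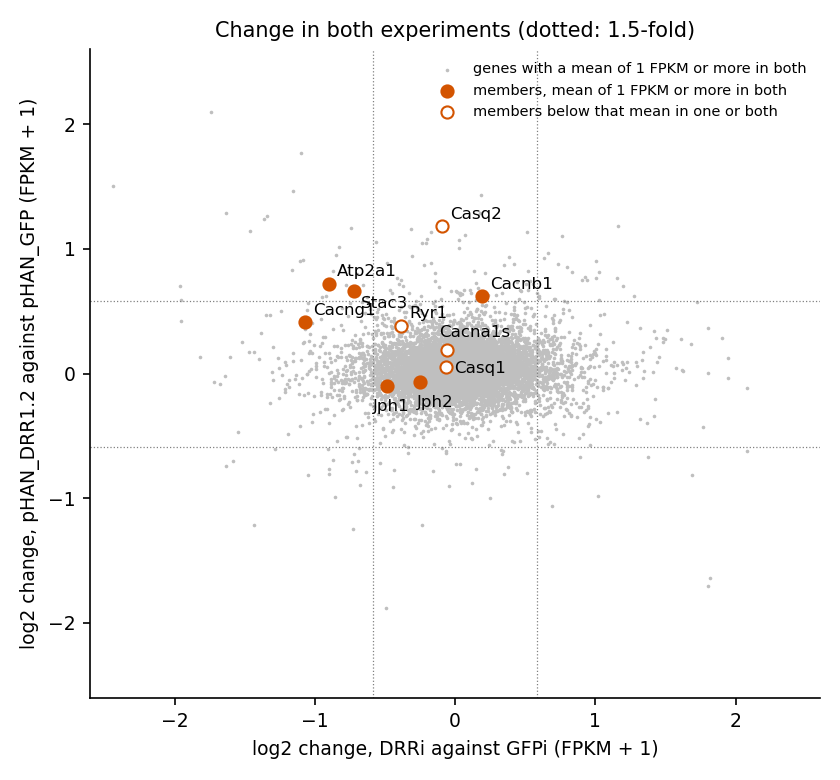
Change of each gene in both experiments, as log2(FPKM + 1) of treated minus control, with dotted lines at 1.5-fold. Atp2a1 and Stac3 pass 1.5-fold in both experiments, and Jph1 and Jph2 lie below the control in both.

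Directions could also be read across both experiments. In all, 7 of the 10 members lay below GFPi and above pHAN_GFP, against 17.4% of all 20368 symbols, but these 7 include genes near 0 FPKM such as Casq1. Among the 6 members that reached the mean of 1 FPKM in both tables, Cacng1, Atp2a1 and Stac3 did, or 3 of 6, against 23.9% of 10398 such genes. Atp2a1 and Stac3 passed 1.5-fold downward in DRRi and upward in pHAN_DRR1.2. Cacng1 passed it in DRRi alone, while Casq2 and Cacnb1 passed it in pHAN_DRR1.2 alone. Over all measured genes 3.5% lay as much lower in DRRi and 1.38% as much higher in pHAN_DRR1.2. The share of all genes that did both was not counted, so Atp2a1 and Stac3 have no such share beside them. Atp2a1 reached the mean of 1 FPKM in the DRRi experiment only through its level in GFPi. Whether a gene's changes in the 2 experiments differ was not tested. The pattern of Cacng1, as the most abundant member, was also compared with 7927 genes at a mean of at least 5 FPKM in both tables, by the Euclidean distance between their pairs of log2 changes. The nearest were Nqo1, a quinone reductase, at a distance of 0.0511, Mgp, the matrix Gla protein, at 0.103, and Ssfa2 at 0.105. Prl2c3 with Prl2c4 (0.124) and Prl2c2 (0.161) followed, and these are near-identical copies whose counts are uncertain.

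The other genes of the triad and reticulum were taken as a list of 20, of which 10 reached the mean of 1 FPKM in the DRRi experiment. Of those, 4 lay lower by 1.5-fold or more and 0 higher, against 3.5% and 4.66% of all measured genes. The list's median change was -0.38. Cacna2d1, the alpha-2/delta subunit of the same channel, stood at 7.24 against 17.7 FPKM (-1.18), and its lowest q-value in the authors' deposited table was 0.0308. Asph, the locus that also encodes junctin and junctate, stood at 20.4 against 39.4 FPKM (-0.92). Jsrp1, a protein of the junctional reticulum, stood at 1.56 against 3.47 (-0.80), and S100a1, a calcium-binding regulator of the release channel, at 20.4 against 31.6 (-0.61). In the overexpression experiment 11 of the 20 were measured, with a median of 0.07. Of the 11, 1 was higher and 0 lower, against 1.38% and 0.654% of all measured genes. The higher gene was Hrc, a histidine-rich calcium-binding protein of the store, which reached the mean of 1 FPKM only through its level in pHAN_DRR1.2. It stood at 1.97 against 0.621 FPKM (0.88), and its q-value was 0.00525 in the authors' deposited table. Fkbp1a, which binds the release channel, stood at 188 against 174 FPKM, and Bin1, which shapes the tubule, at 131 against 121.

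Paralogues used mainly outside fast skeletal muscle were a list of 13. Of these, 3 were measured in the DRRi experiment and 4 in the other. On the log2(FPKM + 1) scale 0 passed 1.5-fold in either. The shares of all measured genes that passed it are those given for the triad list. Atp2a2, the calcium pump of slow muscle, heart and most other cells, stood at 87.1 against 90.5 FPKM in DRRi and GFPi, and at 106 against 111 in pHAN_DRR1.2 and pHAN_GFP. It was thus far more abundant per length than Atp2a1 in every library. Stac2 stood at 36.9 against 37.8 FPKM and at 53.0 against 45.7, and Cacnb3 at 24.6 against 20.6 and at 32.0 against 27.8. Ryr3, a release channel of developing muscle, stood at 2.05 FPKM in pHAN_DRR1.2 against 3.34 in pHAN_GFP (-0.51), and the authors' deposited table gave it a q of 0.0356. As a plain ratio Ryr3 lay lower by more than 1.5-fold. Of 16 general calcium store genes, 15 were in the tables and all 15 were measured. In DRRi 1 of them was lower, the plasma membrane pump Atp2b4 at 18.9 against 33.4 FPKM (-0.79), and 1 higher, the store-operated channel gene Orai2 at 16.8 against 8.48 (0.91), with a list median of -0.13. In pHAN_DRR1.2 0 passed 1.5-fold either way and the median was -0.01. Over all measured genes 3.5% lay lower and 4.66% higher in DRRi, and 0.654% and 1.38% in pHAN_DRR1.2. The counts of this list lie close to those shares. The luminal buffer Calr stood at 719 against 947 FPKM and at 842 against 1006.

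The ChIP-seq samples asked where the muscle factors bind around these genes before and after differentiation. Every member had MyoD and MyoG peaks nearby in myotubes, and 9 of the 10 also had a myoblast MyoD peak within 30 kb. Casq1 was the exception, with 0 myoblast peaks at that distance. The only myoblast MyoD peak near Casq2 lay 29.0 kb from the locus, nearer another gene, and overlapped no myotube MyoD peak. In all loci with a position, 48.5% had a myoblast MyoD peak at that distance, 68.8% a myotube MyoD peak and 66.1% a MyoG peak. Among loci of genes that reached the mean of 1 FPKM in both tables the shares were 61.1%, 86.6% and 83.8%. H3K4me1 domains lay near all 10 at both stages, against 79.5% of loci in myoblasts and 77.6% in myotubes. For myotube peaks the members' share thus lies close to that of expressed loci.

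More MyoD peaks lay near 9 of the 10 genes in myotubes than in myoblasts, where 58.1% of all loci and 74.8% of expressed loci had more. The myotube list is also the longer one, with 39700 peaks against 18141. Cacna1s had 2 MyoD peaks within 30 kb in myoblasts and 11 in myotubes, with 10 MyoG peaks. Jph1 had 2, 11 and 12 in the same order, Jph2 had 5, 11 and 10, and Cacnb1 had 4, 10 and 9. Casq2 had 1, 8 and 11, Atp2a1 had 3, 8 and 6, and Stac3 had 2, 7 and 7. Cacng1 had 4 MyoD peaks in myoblasts and 5 in myotubes, with 4 MyoG peaks, and Casq1 had 0, 4 and 4. Ryr1 had 2 MyoD peaks at each stage and 1 MyoG peak. The median member had 8 myotube MyoD peaks and 8 MyoG peaks, where the median over all loci was 2 and 1. Members had longer loci, with a median of 47.2 kb against 19.4 kb, and longer windows hold more peaks. Of the 77 myotube MyoD peaks, 27 lay nearer another gene's locus.

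**Figure D3:**
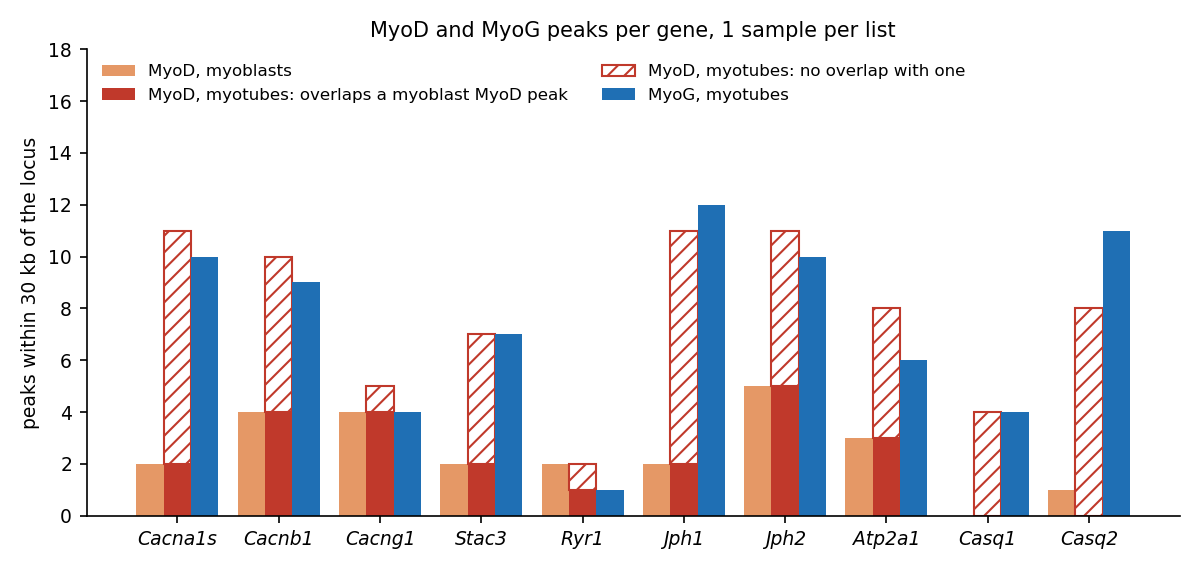
Number of MyoD peaks in myoblasts and myotubes and of MyoG peaks in myotubes 30 kb or less from each gene, with 1 sample per list. Cacna1s, Jph1 and Jph2 have 11 myotube MyoD peaks each, and Ryr1 has 2 at both stages.

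MyoD sites of myoblasts were mostly still occupied in myotubes at these genes. Of 25 myoblast peaks near members, 23 overlapped a myotube MyoD peak by 1 bp or more, which is 92.0% (95% Clopper-Pearson interval 74.0 to 99.0%) against 73.9% of all myoblast peaks. The 2 that did not lay near Ryr1 and Casq2. Of the 77 myotube peaks, 54 overlapped no myoblast peak, or 70.1% (58.6 to 80.0%) against 65.9% of all myotube peaks. MyoG shared 58 of the 77, or 75.3% (64.2 to 84.4%) against 66.9%. The intervals cover counting error only, and these differences between members and all peaks were not tested.

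New sites carried lower scores than kept ones. The classes are not independent of score, since a weak site can count as new by missing the cut of 60 in the myoblast list. The authors' MACS peak score in myotubes had a median of 1185 at the 23 kept peaks near members and 108 at the 54 new ones, against 404 and 130 over all myotube MyoD peaks. At 8 of the 10 members the highest-scoring myotube MyoD peak overlapped a myoblast peak, against 49.4% of all loci with a myotube MyoD peak. At 6 it was also the site of the highest MyoG peak, close to the 66.4% of loci with both kinds of peak. Casq1 and Casq2 were the members whose highest myotube MyoD peak was new. A locus with no myoblast MyoD peak cannot be among the 8 or the 49.4%. Such a peak lay within 30 kb of 9 of the 10 members, against 48.5% of all loci.

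The strongest sites can be placed by gene, with coordinates on mm9. At Ryr1 (chr7:29788358-29910170) a myotube MyoD peak at chr7:29908471-29909754 was centred 1.06 kb inside the gene from its start, at the score ceiling of 3100. The peak there scored 366 in the myoblast list and 932 in the MyoG list. At Cacna1s (chr1:137949477-138016399) the peak at chr1:137962745-137963816, centred 13.8 kb inside the gene, also stood at 3100, and the overlapping myoblast and MyoG peaks scored 2081 and 619 in their own lists. Near Atp2a1 (chr7:133572280-133606587) another site stood at that score, chr7:133608729-133609817, which began 2.14 kb outside the locus at its start. That site lies nearer another locus, and Atp2a1 itself overlaps Rabep2, so reads of these genes may be shared if counting ignored strand, which is not given in the sources used here.

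Cacng1 (chr11:107564531-107577790) had its highest myotube MyoD peak inside the locus at chr11:107575390-107576511, with a score of 2660, and a MyoG peak of 1016 there. Cacnb1 (chr11:97864214-97883941) had one of 1688 at chr11:97881557-97883278, centred 1.52 kb from its start, with a MyoG score of 1128. Stac3 (chr10:126938772-126945871) had one of 1396 at the lower-coordinate end of the locus, chr10:126938350-126939272. Jph2 (chr2:163161977-163223729) had one of 1644 at chr2:163212039-163213175, centred 11.1 kb inside from its start, and all 11 of its myotube MyoD peaks overlapped the locus.

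Jph1 (chr1:16985020-17087970) had its highest MyoD and MyoG peaks at different places. The MyoD peak, at chr1:16986667-16987503, scored 1383 and was already present in myoblasts. The highest MyoG peak, at chr1:17075166-17075632, scored 1104 some 90.4 kb from the lower-coordinate end and overlapped a new MyoD peak. Casq2 (chr3:101890432-101950435) had 8 myotube MyoD peaks, of which all 8 were new and all 8 overlapped MyoG. The highest, at chr3:101899204-101900116, scored 1119 at 9.23 kb inside the gene, and the next, at chr3:101903007-101904352, scored 992. Casq1 (chr1:174140024-174150026) had no myotube MyoD peak in the locus, and the highest within 30 kb scored 115, with a highest MyoG score of 170.

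**Figure D4:**
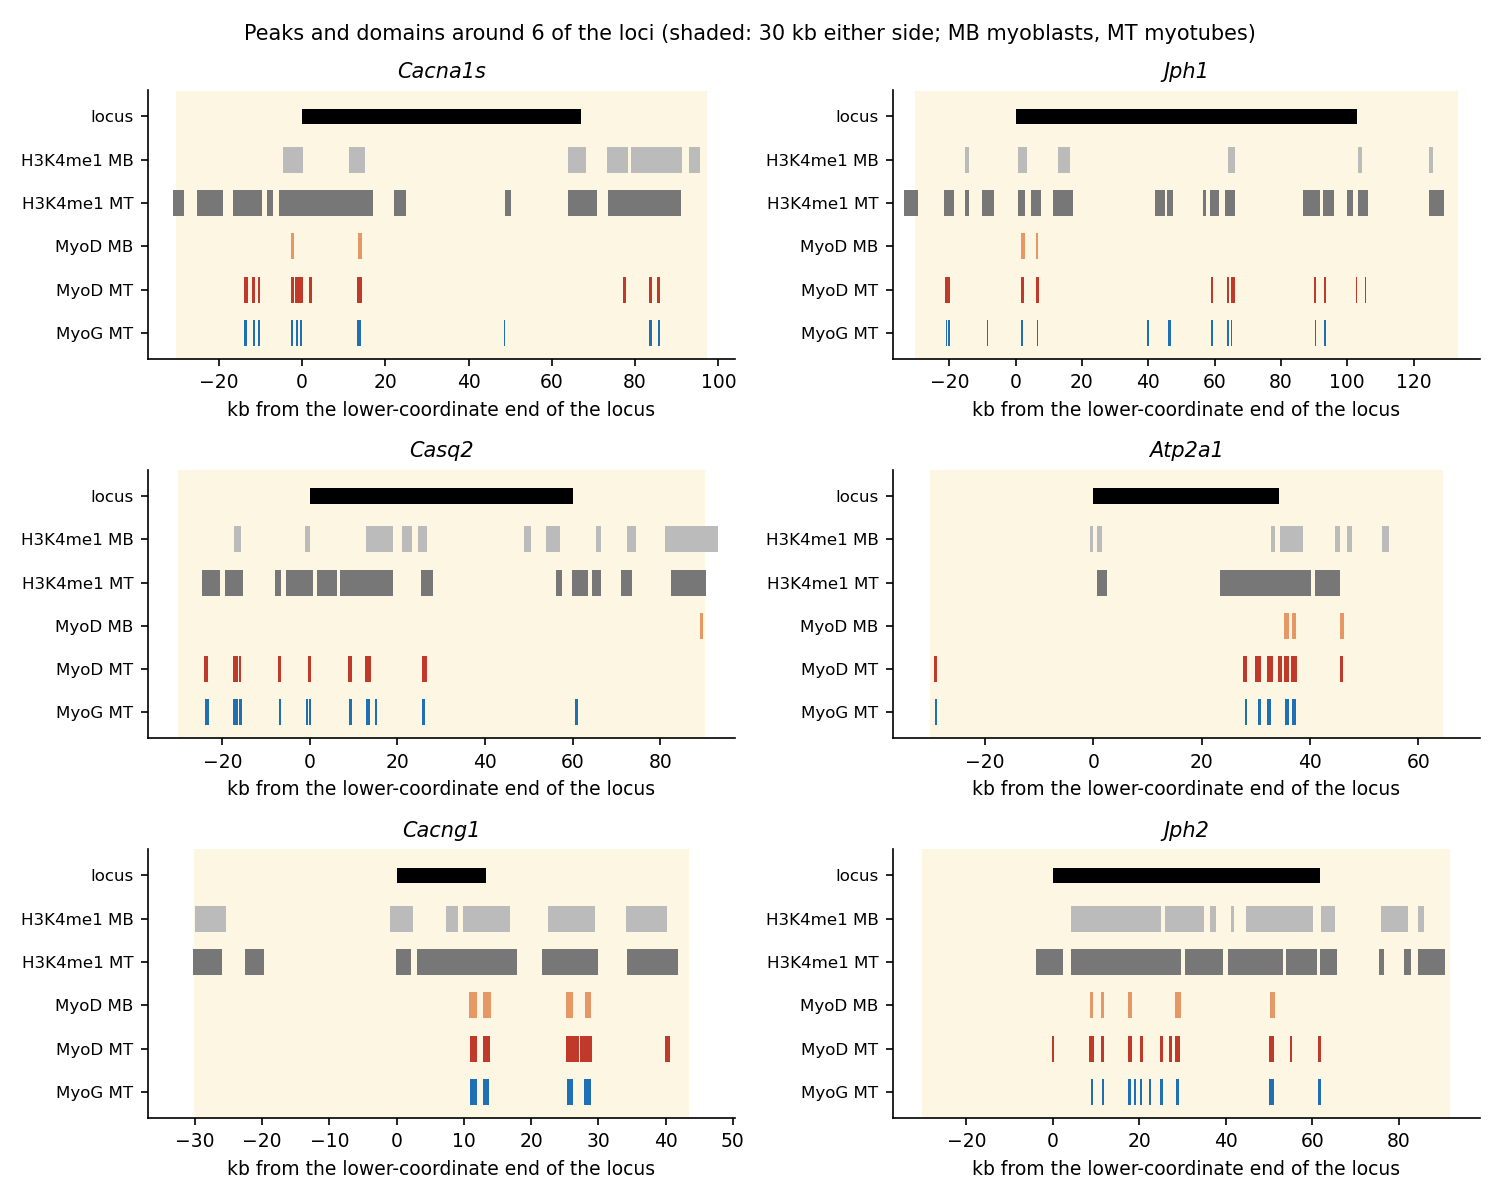
Maps of 6 of the loci, with distance in kb from the lower-coordinate end of the locus and a row for each ChIP-seq list, where marks show MyoD and MyoG peaks and H3K4me1 domains. At Casq2 the 8 myotube MyoD peaks have no myoblast counterpart, and at Jph1 myotube H3K4me1 domains spread over the gene.

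Promoters could be read for 7 members from the RefSeq promoter table (GRCm38.p6, another build than the peaks), matched by symbol, with the strand taken from RefSeq, and Cacng1, Stac3 and Jph1 had no entry there. Within 1 kb of the start, 6 of these 7 had a myotube MyoD peak, all but Casq1, where 20.5% of the 14334 loci with a strand did. The same 6 had a MyoG peak there, against 15.3%. In myoblasts 3 of the 7, Atp2a1, Cacnb1 and Ryr1, had a MyoD peak there, against 7.63%. H3K4me1 lay there at 6 of 7 in myoblasts, all but Ryr1, and at 7 of 7 in myotubes, against 51.5% and 48.8% of loci. Casq1 missed the 1 kb limit narrowly. Its nearest myotube MyoD peak, chr1:174151214-174151799 on mm9, lay 1.19 kb before the start with a score of 89.0.

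The 250 bases before the start are shown for 3 members with a start-site MyoD peak in myotubes and CAGCTG, the E-box core that MyoD favours. They are also shown for Casq2, which had such peaks but no CAGCTG. Casq1 is shown as well, with CAGCTG but no peak within 1 kb of its start. Capitals mark CAGCTG, or, in Casq2, a MEF2 motif match, and in Casq1 also CAGGTG. The windows are chr1:136052561-136052810, plus strand, chr7:126463074-126463323, minus strand, chr2:163397994-163398243, minus strand, chr3:102086165-102086414, plus strand and chr1:172219896-172220145, minus strand, each read 5′ to 3′ on the gene's strand.
Cacna1s: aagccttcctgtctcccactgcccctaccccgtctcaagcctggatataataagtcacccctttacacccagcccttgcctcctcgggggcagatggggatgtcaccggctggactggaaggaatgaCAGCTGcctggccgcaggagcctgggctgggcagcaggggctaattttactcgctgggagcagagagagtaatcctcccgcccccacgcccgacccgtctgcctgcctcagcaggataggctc
Atp2a1: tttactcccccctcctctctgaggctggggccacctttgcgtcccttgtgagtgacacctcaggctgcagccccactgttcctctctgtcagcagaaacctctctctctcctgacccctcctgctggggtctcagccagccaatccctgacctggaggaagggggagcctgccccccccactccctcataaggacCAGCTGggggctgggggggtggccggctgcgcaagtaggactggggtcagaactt
Jph2: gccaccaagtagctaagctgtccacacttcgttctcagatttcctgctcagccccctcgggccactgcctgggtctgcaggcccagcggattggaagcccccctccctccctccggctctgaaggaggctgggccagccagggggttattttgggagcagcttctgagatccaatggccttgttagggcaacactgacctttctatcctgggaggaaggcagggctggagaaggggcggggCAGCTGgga
Casq2: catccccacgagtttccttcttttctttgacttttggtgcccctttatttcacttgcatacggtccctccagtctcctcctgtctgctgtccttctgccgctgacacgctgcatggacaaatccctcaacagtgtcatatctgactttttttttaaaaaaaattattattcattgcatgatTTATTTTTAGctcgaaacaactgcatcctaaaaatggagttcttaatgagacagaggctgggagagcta
Casq1: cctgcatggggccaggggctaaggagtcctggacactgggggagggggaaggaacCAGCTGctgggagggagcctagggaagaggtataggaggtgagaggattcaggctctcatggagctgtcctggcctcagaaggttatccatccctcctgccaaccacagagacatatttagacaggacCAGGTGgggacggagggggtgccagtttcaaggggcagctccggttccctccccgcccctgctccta

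CAGCTG, which is 1 form of the general E-box CANNTG and reads the same on both strands, began 123 bases before the start of Cacna1s, 55 before that of Atp2a1, 9 before that of Jph2 and 195 before that of Casq1. These are 4 of 7 members, where 13.0% of the 32851 promoter windows of this length hold it. CANNTG in any form was found in 66.2% of windows, and the Ryr1 window had none although a myotube MyoD peak lay within 1 kb of its start. The windows of Cacnb1 also held no CAGCTG. Casq2 held the E-boxes CACTTG and CAACTG, and a match to the MEF2 motif, the site of a factor that works with MyoD, searched on both strands, 69 bases before the start. Of all windows 2.92% held a MEF2 match. CAGGTG, or CACCTG on the other strand, was found in 17.2% of windows and in Casq1 alone of the 7. A match describes letters and does not show binding.

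H3K4me1 marked more of every member's neighbourhood in myotubes than in myoblasts. Jph1 showed the largest ratio, with 7.36% of its locus and 30 kb flanks inside domains in myoblasts and 29.6%, or 48.2 kb, in myotubes, a ratio of 4.02. Atp2a1 went from 9.60 to 23.2 kb, Cacna1s from 32.8 to 68.3 kb and Casq2 from 30.6 to 52.8 kb. Cacng1 went from 41.0% to 54.1% of its window. Stac3 went from 17.0 to 22.8 kb and Jph2 from 58.4 to 73.4 kb. Cacnb1, from 38.8 to 44.0 kb, and Casq1, from 20.8 to 24.2 kb, had the smallest ratios. Ryr1, with 10.8 kb and then 16.2 kb, had the smallest covered share of its window at both stages, 5.96% and 8.91%.

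All 10 members were covered over a greater length in myotubes, where 44.7% of all loci and 56.6% of expressed loci were. Their summed length went from 261 to 413 kb, a ratio of 1.58, against 1.15 over all loci, whose windows overlap, and 1.16 over loci of expressed genes. Domains were called separately in each sample and their reads are not scaled between samples, so read density cannot be compared between stages. Unscaled, Jph1 held 44.5 ChIP reads per kb of domain in myoblasts and 35.7 in myotubes, and each of the other 9 also held fewer in myotubes. The median fold over control of a gene's domains had no shared direction. It was higher in myotubes at Cacna1s, Cacng1, Cacnb1, Casq1, Atp2a1 and Stac3. At Ryr1, Casq2, Jph1 and Jph2 it was lower. Cacnb1 went from 2.00 to 3.29 and Ryr1 from 3.03 to 2.38. Taking the longest myotube domain of each gene, it measured 25.4 kb at Jph2, 22.6 kb at Cacna1s and 16.8 kb at Atp2a1.

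**Figure D5:**
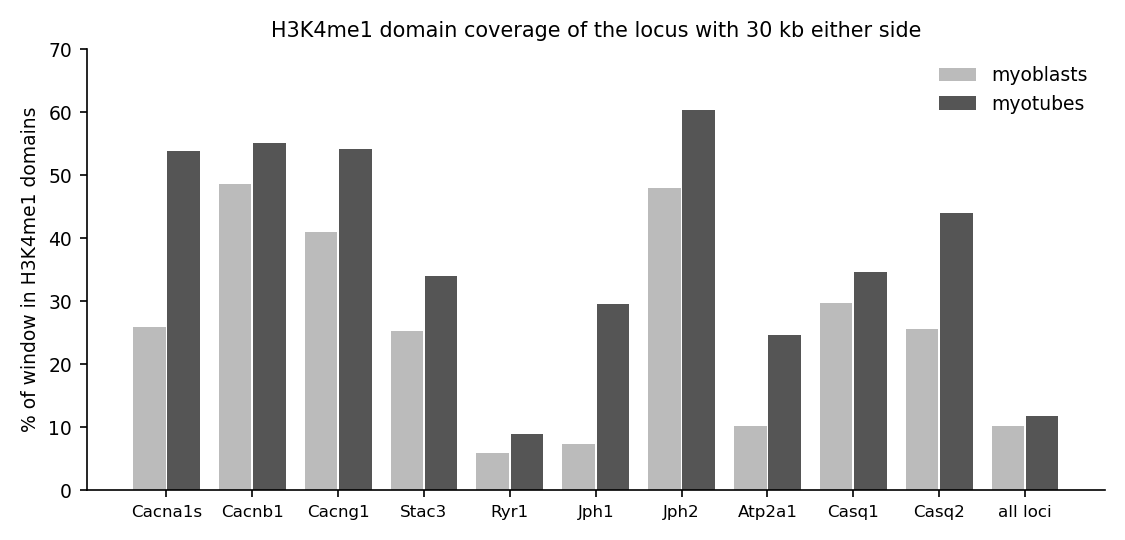
Share of each gene's locus with 30 kb either side that lay inside H3K4me1 domains, in percent, in myoblasts and myotubes with 1 sample each. All 10 genes are higher in myotubes, from 8.91% at Ryr1 to 60.3% at Jph2.

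Myotube MyoD sites at members lay mostly inside the mark. Of the 77 peaks, 73 overlapped a myotube H3K4me1 domain, or 94.8% (87.2 to 98.6%), against 85.0% of all myotube MyoD peaks. Of the 54 new peaks, 35 lay in chromatin that already carried H3K4me1 in myoblasts, or 64.8% (50.6 to 77.3%) against 48.4% of all new peaks, 16 lay where the mark was present in myotubes alone, and 3 lay outside it at both stages. The members differed here. At Cacnb1 all 6 new peaks and at Casq1 all 4 lay in chromatin marked in myoblasts. At Jph1 2 of 9 new peaks did, and 6 lay where H3K4me1 was gained. At Cacna1s 5 of 9 were marked before and 4 gained the mark. MyoG had 74 peaks near members, 59 of them with a myotube MyoD peak, or 79.7% (68.8 to 88.2%) against 77.6% of all MyoG peaks. The other 15 had no MyoD peak at either stage, where 7081 of all 35380 MyoG peaks had none.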

How the data were processed

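Of 11 samples, 5 ChIP-seq and 4 polyA RNA-seq samples were used, and 2 further RNA samples were not used here. The authors deposited 2 expression tables with an FPKM, a p-value and a q-value per coding sequence, per the file headers, laid out as a Cuffdiff comparison. The headers do not name the tool. The submitters' processing notes name TopHat, SICER, bedtools and mm9 but no versions. The treated columns carry other names than the labels and were assigned by elimination, since the other column of each table names GFP. Per the file headers MACS made the MyoD and MyoG lists, in which each peak has the authors' score, at least 60. The labels name 2 runs per MyoD or MyoG sample, and whether they were pooled is not given in the sources used here. H3K4me1 domains lie on a 200 bp grid and carry the authors' deposited count of ChIP reads and a fold over control. RNA depth is unknown.

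FPKM were summed per symbol (24333 coding sequences, 20368 symbols), genes were kept where the mean of both libraries reached 1 FPKM, and changes are log2(FPKM + 1), with 1.5-fold as the threshold. Peaks count as shared at 1 bp, and as near a gene at 30 kb or less from its locus, for 20343 symbols with 1 locus. Shares have 95% Clopper-Pearson intervals. There are no replicates, so no test was run. The script was tested on simulated data. Python 3.11.15, numpy 2.4.6, pandas 2.3.3, scipy 1.17.1 and matplotlib 3.10.9 were used.

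All 10 members are named, with up to 4 genes per comparison from 3 wider lists (those past 1.5-fold with the largest change, otherwise the most abundant), the 5 genes most like the most abundant member, and the highest-scoring peak per list. The second Casq2 peak and the marker genes quoted singly were chosen after their values were seen. The members and lists were chosen with earlier results of these data known. Alternatives were another pseudocount, filter, scaling, fold, coding sequence, distance, peak threshold and overlap.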

Additional observations from a re-analysis of the deposited data

How the results depend on the processing

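Over 47 alternatives to the summary counts, medians, shares and H3K4me1 ratio, 38 values stayed close to the main one and 9 moved. Close meant within a factor of 1.5 for counts and log2 values, and inside the main value's interval for shares. Several counts were at all 10 members in the main setting, which makes closeness easy to reach. Only the medians and the ratio could change direction, and none did. Among single genes Cacnb1 in DRRi changed sign, from 0.19 to -0.18 with its most abundant coding sequence, which leaves no member above the control. The count of 3 members lower in DRRi became 1 among members with a mean of 5 FPKM or more, 1 at 2-fold and 1 at the authors' q-value, and 4 with a pseudocount of 0.1, when Jph1 joined. Its median of -0.61 became -0.32 with no filter. The count of 4 members higher in pHAN_DRR1.2 became 2 with a mean of 5 FPKM or more, 1 at 2-fold, 1 at the authors' q-value, and 3 with each gene's most abundant coding sequence or the same upper quartile, where Cacnb1 was lost. The share of new myotube MyoD peaks was 57.5% among peaks at or above the median score, against 70.1%. The ratio of H3K4me1 covered length was 1.35 among domains at or above the median fold, against 1.58. Each of these settings changes which genes, peaks or domains are counted, and a cause beyond that was not tested. Within 10 kb, 8 members had a myoblast MyoD peak, and 7 when peaks went to their nearest locus. No paired analysis was possible because each group holds 1 sample, and for the same reason no replicate could be left out. RNA depth is unknown, so levels near 0 cannot be given a counting error.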
